A study of Mus musculus with 14 samples.

Results

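Heat shock chaperones are proteins that bind unfolded or misfolded proteins and help them to fold, keep them soluble or pass them on for breakdown. Proteins of the HSP70 family take up unfolded stretches with the help of HSP40 co-chaperones and exchange factors, HSP90 acts on clients that are nearly folded, and small heat shock proteins hold unfolding proteins without using ATP. Many of their genes are switched on by the transcription factor Hsf1 after heat or other stress to proteins, and muscle fibres carry several of these proteins, among them Cryab, Hspb1, Hspb7 and Bag3, at the sarcomere. The 10 genes described here were chosen by name from these families: Hspa1a, Hspa1b, Hspa8, Hsph1, Dnajb1, Hsp90aa1, Hspb1, Hspb7, Cryab and Bag3. They are 10 of the 54532 genes listed in the deposited tables, and all 10 were among the 15458 genes that passed a filter on low counts.

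The study asked what overexpression of c-Myc in endothelial cells does to mice on a western diet, and sequenced polyadenylated RNA of skeletal muscle. All mice were male and of the FVB/N strain. Endothelial c-Myc overexpression (EC-Myc OE, here OE) mice carried the Tet-O-Myc transgene, which encodes human c-Myc, together with Cdh5-tTA, a transactivator driven by an endothelial promoter and held inactive by doxycycline, and doxycycline was withdrawn at 4 to 6 weeks of age. Control littermates (CT) carried Tet-O-Myc without the transactivator. Mice ate a control diet (CTD) or a western diet (WD) high in fat for 20 weeks, and the age at collection was not stated. By the labels there were 3 CT-CTD, 3 CT-WD, 4 OE-CTD and 4 OE-WD libraries, while the study's text gives a shorter time on diet for the transcriptome. The study's account of the libraries gives a single group size for each diet, smaller on control diet, which goes against these labels and would hold if those of CT-WD and OE-CTD were exchanged. The study also reports Zbtb16 as higher in OE-WD than in CT-WD, while by the labels its fitted mean was lower there, as described below. The labels were followed, and whether they are exchanged is not settled. If they were, values of CT-WD, those of CT-WD 3 included, would belong to OE mice on control diet and those of OE-CTD to CT mice on western diet. CT-WD against CT-CTD and OE-WD against OE-CTD would then compare genotypes, OE-CTD against CT-CTD and OE-WD against CT-WD would compare diets, and the interaction would be the same. A number after a group's name is the replicate. The study names soleus and gastrocnemius as the muscles taken, and the labels do not say which of them a library came from.

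Reads counted on genes numbered 24807368, 24101226 and 25054855 in the CT-CTD libraries, by replicate, and 26518734, 21833839 and 23814408 in the CT-WD libraries. They numbered 25486678, 28519159, 22966288 and 22083340 in the OE-CTD libraries, and 25281275, 27115249, 22033140 and 27698046 in the OE-WD libraries. Levels are given as CPM, the counts of a gene relative to its library's total after scaling by the TMM method, or as the authors' FPKM, which also divide by gene length and are the only scale used here to compare different genes. All 7 skeletal muscle markers were detected in the 14 libraries, and Acta1, the actin of the muscle thin filament, was the most abundant of them with a mean of 30600 FPKM. Fast-fibre markers were led by Tnnt3 at a mean of 10500 FPKM and slow-fibre markers by Myl3 at 400 FPKM. Endothelial markers, the cells in which the transgene is driven, were led by Cdh5 at 24.2 FPKM. The mouse Myc gene, which is not the transgene, had 5.05 ± 0.921 CPM (SD, n = 3) in CT-CTD, 8.99 ± 4.21 (n = 3) in CT-WD, which was 6.82 ± 2.68 (n = 2) without CT-WD 3, 5.60 ± 1.74 (n = 4) in OE-CTD and 6.40 ± 1.77 (n = 4) in OE-WD. The tissue is a mixture, so that fewer cells of a type and less RNA per cell cannot be told apart.

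Library CT-WD 3 stood apart from the other 13. It had the highest CPM of the 14 libraries for 10 of the 10 chaperones, against 13.5% of all genes tested, and 9 of 10 were more than 1.5-fold above the mean of the other 13 libraries, against 7.01% of all genes. The share of all genes with their highest value in a library was between 4.20% and 9.15% for the other 13. Its median fold over the mean of the other 13 libraries was 2.35 for the chaperones and 0.979 for all genes. This comparison was made after the values were seen, and the tests between groups that involve CT-WD are therefore given with and without CT-WD 3. Replicate 4 of both OE groups also differed from its group: the chi-square per degree of freedom against the other replicates was between 35.61 and 41.24, where those others differed from each other by 7.502 to 14.49. Between CT libraries of the same group it was 16.15 to 48.13, a range that holds the values of replicate 4. The muscle markers of replicate 4 summed to 99750 CPM in OE-CTD 4 and 98050 CPM in OE-WD 4, above the 71300 to 89110 CPM of the other 12 libraries. Among the 13 libraries other than CT-WD 3, OE-CTD 4 had the highest value for Hspb1, at 298 CPM, and for Bag3, at 309 CPM, and OE-WD 4 for none. In the labels the names of OE-CTD 1, 2 and 3 share a number, as do those of all 4 OE-WD libraries, while each CT library has a number of its own. The labels do not say what the number stands for, and each library is counted as a separate sample. If libraries that share a number came from the same mouse, the OE groups would hold fewer mice than libraries. Their group sizes and the p-values of every comparison would then not hold, since the spread is shared.

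By FPKM, which allow comparison between genes, the small heat shock proteins were the most abundant. Cryab, the alpha-B crystallin chain that protects desmin and other muscle filaments, had the highest median over the 14 libraries with 601 FPKM. Hspb7, a small heat shock protein of heart and skeletal muscle that binds filamin C, followed with 311 FPKM and Hspb1, an actin-associated small heat shock protein, with 275 FPKM. Hspa8, the constitutive cytosolic HSP70, had 162 FPKM and Bag3, an HSP70 exchange factor that directs clients to autophagy, 109 FPKM. A gap of several-fold separated these 5 from Hsp90aa1, the inducible cytosolic HSP90, at 16.2 FPKM and Hsph1, an HSP110 exchange factor for HSP70, at 15.5 FPKM. The stress-inducible genes were lowest, with 7.37 FPKM for Hspa1b and 1.29 FPKM for Hspa1a, which encode nearly the same inducible HSP70, and 2.73 FPKM for Dnajb1, an HSP40 co-chaperone, between them. Cryab was above Hspb7 in 14 of 14 libraries, and the order of Hspb1, Hspa8, Bag3 and Hsp90aa1 likewise held in 14 of 14 libraries at each step. Hspb7 was above Hspb1 in 8 of 14 and Hsp90aa1 above Hsph1 in 9 of 14, so that these neighbours did not differ beyond their spread.

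The inducible HSP70 genes showed the widest range. Hspa1a (ENSMUSG00000091971, chr17:34969190-34972156, minus strand, build GRCm38) had 2.22, 2.39 and 2.78 CPM in CT-CTD and, on western diet, 3.29, 3.33 and 66.0 CPM in CT-WD, in the order of the replicates. It had 3.87, 3.56, 4.70 and 3.42 CPM in OE-CTD and 5.56, 3.89, 3.15 and 4.42 CPM in OE-WD. CT-WD 3 lay 18.4-fold above the mean of the other libraries and 11.9-fold above the next highest, while the 3 CT-CTD libraries were the lowest of the 14. Hspa1b (ENSMUSG00000090877, chr17:34956436-34959238, minus strand) had 9.33, 13.4 and 14.6 CPM in CT-CTD and 19.3, 13.1 and 281 CPM in CT-WD. The OE libraries had 13.5, 20.5, 23.4 and 18.5 CPM on control diet and 24.7, 15.3, 21.3 and 20.4 CPM on western diet. For Hspa1b too CT-WD 3 alone was high, at 16.1-fold the mean of the others, and CT-CTD lay below OE-WD, while the other groups overlapped each other. Reads of these near-identical genes may have been assigned to either copy, so the split between them is uncertain.

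Dnajb1 (ENSMUSG00000005483), which stimulates the ATPase of HSP70, had 6.68, 7.20 and 6.75 CPM in CT-CTD and 8.53, 8.21 and 53.3 CPM in CT-WD. Its levels were 6.94, 9.07, 12.3 and 9.60 CPM in OE-CTD and 7.59, 5.47, 8.29 and 7.63 CPM in OE-WD. CT-WD 3 was 6.65-fold above the mean of the others, and the lowest CT-WD value lay above the highest CT-CTD value. The constitutive partner Hspa8 (ENSMUSG00000015656) had 458, 626 and 784 CPM in CT-CTD and 629, 793 and 1309 CPM in CT-WD. It ranged from 558 to 739 CPM in OE-CTD and from 530 to 741 CPM in OE-WD, so that the groups overlapped. CT-WD 3 lay above every other library, at 2.02-fold the mean of the others, and CT-CTD 1 below every other library. CT libraries of the same replicate number were taken as pairs, which the labels do not state. Their deviations from group means correlated at 0.385, 0.123 and 0.203. Hspa8 was higher on western diet in 3 of 3 of these pairs. The folds were 1.37, 1.27 and 1.67. Hsph1 (ENSMUSG00000029657) ranged from 79.2 CPM in OE-CTD 1 to 124 CPM in CT-CTD 3 over the 13 other libraries and had 201 CPM in CT-WD 3. Hsp90aa1 (ENSMUSG00000021270) was between 50.8 and 90.6 CPM in those 13 libraries, the latter in CT-WD 1, and had 139 CPM in CT-WD 3.

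Among the small heat shock proteins, Hspb1 (ENSMUSG00000004951) had 216, 247 and 253 CPM in CT-CTD and 286, 266 and 893 CPM in CT-WD. It had 242, 242, 277 and 298 CPM in OE-CTD and 271, 212, 223 and 272 CPM in OE-WD. CT-WD 3 was 3.52-fold above the mean of the others, among which Hspb1 varied least of the 10 chaperones, with a coefficient of variation of 10.6%. Cryab (ENSMUSG00000032060) ranged from 642 to 1077 CPM in the other 13 libraries and had 2019 CPM in CT-WD 3. Hspb7 (ENSMUSG00000006221) had 861, 554 and 953 CPM in CT-CTD and 626, 467 and 1324 CPM in CT-WD, so that CT-WD held both its lowest and its highest value of the 14. Its OE libraries lay between 683 and 989 CPM. Over the 13 libraries without CT-WD 3 the coefficient of variation of the 10 chaperones was between 10.6% and 26.4%, and over all 14 it reached 208% for Hspa1a, 195% for Hspa1b and 108% for Dnajb1.

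Bag3 (ENSMUSG00000030847, chr7:128523616-128546981, plus strand) had the smallest excess in CT-WD 3, at 1.44-fold, and the smallest p of the 10 between genotypes on control diet. It had 215, 188 and 217 CPM in CT-CTD and 239, 221 and 366 CPM in CT-WD. Its levels were 265, 278, 280 and 309 CPM in OE-CTD and 293, 247, 246 and 303 CPM in OE-WD. The 3 CT-CTD libraries were the lowest of the 14, with no overlap with any other group, and without CT-WD 3 the CT-WD libraries also lay below every OE library.

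**Figure D1:**
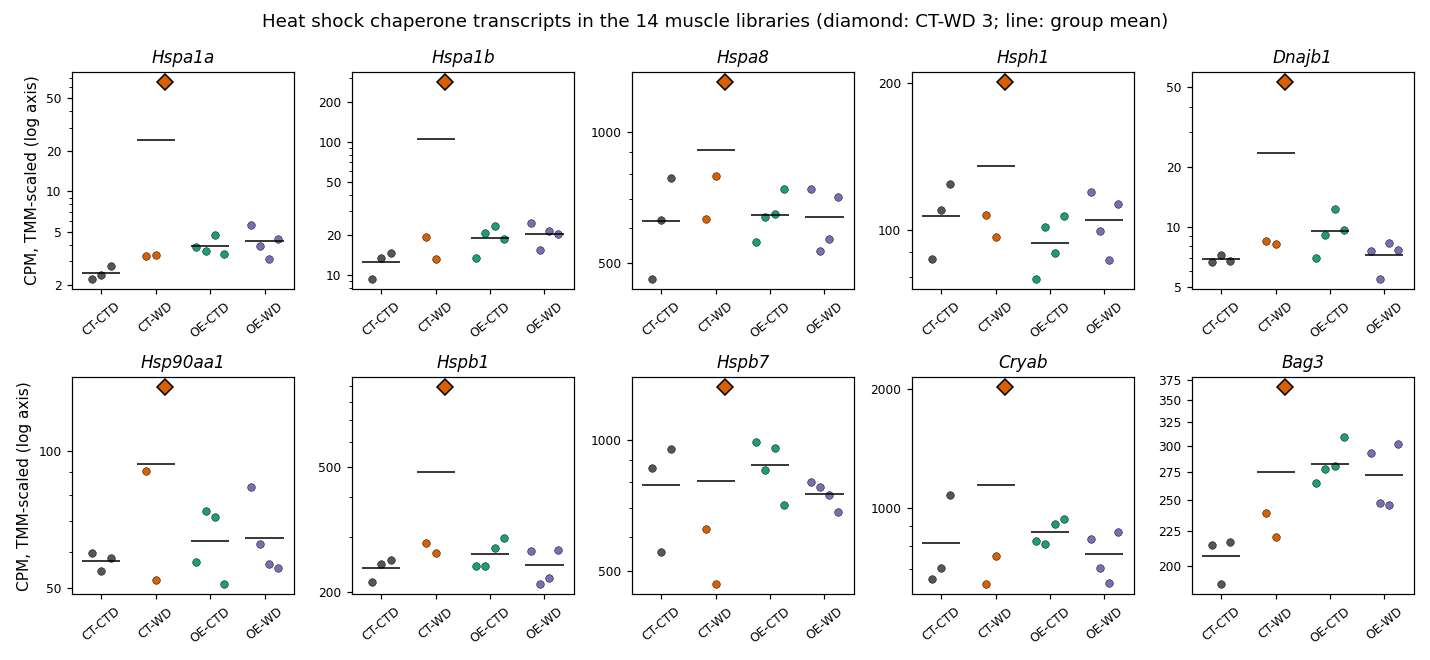
CPM of each heat shock chaperone on a log axis in the 14 muscle libraries, with points for libraries by group, a line at the group mean and a diamond for CT-WD 3. The diamond is the highest point for 10 of 10 genes, and the CT-CTD libraries of Bag3 lie below those of the other groups.

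The effect of the western diet in CT mice was tested by comparing CT-WD with CT-CTD. With all 14 libraries, 10 of 10 chaperones had a higher fitted mean on western diet, from 0.03 for Hspb7 to 3.29 for Hspa1a on the log2 scale. The inducible Hspa1a, Hspa1b and Dnajb1 led with fitted folds of 9.80, 8.41 and 3.39, followed by Hspb1 with 2.02 and Hsp90aa1 with 1.64. The median log2 fold change was 0.63 for the chaperones and 0.01 for all genes. Without CT-WD 3 the chaperones' median was 0.20, 7 of 10 were higher on western diet, and Hsph1, Cryab and Hspb7 were lower.

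By edgeR, 0 of 10 chaperones passed a fold over 1.5 with a Benjamini-Hochberg adjusted p under 0.05, the adjusted level, and 0% of all genes tested did. DESeq2 and limma on log2 FPKM also called 0 of 10 at that level. With all libraries DESeq2 gave no p for Hspa1a, Hspa1b and Dnajb1, in this comparison and in each of the others. Leaving out CT-WD 1 gave 1 of 10 by edgeR, against 0.183% of all genes as higher, and omitting the filter on low counts gave 4, against 0.265%. At the same fold with an unadjusted p under 0.05, the unadjusted level, edgeR called 5 of 10 as higher, against 2.17% of all genes, while DESeq2 called 2, against 2.19%, and limma on log2(FPKM + 1) called 3, against 0.55%. Those 5 were Hspa1a with a log2 fold change of 3.29 ± 0.844 (SE, edgeR adjusted p = 0.394), Hspa1b, Dnajb1, Hsp90aa1 and Hspb1. Hspa1b had 3.07 ± 0.801 (edgeR adjusted p = 0.419) and Dnajb1 1.76 ± 0.524 (edgeR adjusted p = 0.492). Hspb1 had 1.01 ± 0.324 (edgeR adjusted p = 0.540) and Hsp90aa1 0.71 ± 0.256 (edgeR adjusted p = 0.587). The values of CT-WD and CT-CTD did not overlap for 4 of 10 chaperones, Hspa1a, Dnajb1, Hspb1 and Bag3, against 9.63% of all genes. Between pairs of equal replicate number 5 of 10, the same 4 and Hspa8, were higher on western diet in 3 of 3 pairs, against 14.3% of all genes. A block for the replicate number within each genotype was fitted over all groups. It tied CT-WD to CT-CTD libraries and OE-WD to OE-CTD libraries of equal number. With this block edgeR called 0 of 10 as higher at the adjusted level, against 0.0582% of all genes, and at the unadjusted level the same 5 as without it, against 2.2%. Hspa8 then had the lowest adjusted p of the 10, with a log2 fold change of 0.51 ± 0.112 (edgeR adjusted p = 0.153), beside 0.55 ± 0.234 (edgeR adjusted p = 0.644) without the block. The block lowered Hspa1a from 3.29 to 2.13 ± 0.670 (edgeR adjusted p = 0.265), Hspa1b from 3.07 to 1.82 ± 0.638 (edgeR adjusted p = 0.299) and Dnajb1 from 1.76 to 1.22 ± 0.431 (edgeR adjusted p = 0.300).

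These calls rested on CT-WD 3. Without that library edgeR called 0 of 10 at the adjusted level, against 0% of 15875 genes, and 0 of 10 as higher at the unadjusted level, against 1.78% of all genes, and DESeq2 and limma called 0 at both levels. With the block it called 0 at both levels, against 0.0126% and 1.84% of all genes as higher, and Hspa8 had 0.40 ± 0.127 (edgeR adjusted p = 0.561). Without the block the log2 fold change was 0.43 ± 0.241 for Hspa1a (edgeR adjusted p = 0.941), 0.39 ± 0.249 for Hspa1b (edgeR adjusted p = 0.950), 0.29 ± 0.210 for Dnajb1 (edgeR adjusted p = 0.960) and 0.21 ± 0.131 for Hspb1 (edgeR adjusted p = 0.944). The same 4 chaperones still did not overlap, against 17.3% of all genes with 2 CT-WD libraries left. Hspb7 had the smallest p without CT-WD 3, with a log2 fold change of -0.53 ± 0.202 (edgeR adjusted p = 0.930). The p-values measure the spread between these samples.

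In OE mice the diet comparison, OE-WD against OE-CTD, showed little difference in the chaperones. The fitted log2 fold changes ran from -0.39 for Dnajb1 to 0.15 for Hsph1, with 4 of 10 higher and 6 lower on western diet and a median of -0.04, beside 0.00484 for all genes. By edgeR 0 of 10 passed at the adjusted level, against 0.00647% of all genes, and 0 of 10 at the unadjusted level, against 1.37% of all genes, and DESeq2 and limma also called 0. The values of 0 of 10 chaperones were free of overlap between these groups, against 4.08% of all genes. Dnajb1 was 9.47 ± 2.20 CPM (SD, n = 4) in OE-CTD and 7.25 ± 1.23 CPM (n = 4) in OE-WD, and Bag3 283 ± 18.8 and 272 ± 29.8 CPM. Without CT-WD 3, which is not part of this comparison but enters the shared estimate of the spread, Dnajb1 had -0.39 ± 0.162 (edgeR adjusted p = 0.984).

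The genotypes on western diet were compared as OE-WD against CT-WD, a comparison that shares the CT-WD libraries with the diet comparison in CT. With all libraries 10 of 10 chaperones were lower in OE-WD, from -2.50 for Hspa1a to -0.02 for Bag3 on the log2 scale, and the median was -0.56 beside 0.01 for all genes. Without CT-WD 3, 6 of 10 were higher in OE-WD and the median was 0.08. Hspa1a then had a log2 fold change of 0.36 and Hspa1b of 0.33, both of the opposite sign to their values with CT-WD 3.

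By edgeR 0 of 10 passed at the adjusted level, against 0.563% of all genes, and DESeq2 and limma also called 0. Without CT-WD 1 edgeR called 5 of 10 as lower at that level, against 1.94% of all genes, and without the filter on low counts 4, against 0.692%. At the unadjusted level edgeR called 4 of 10 as lower, against 2.42% of all genes, DESeq2 called 1, against 2.38%, and limma called 2, against 0.841% on log2(FPKM + 1) and 2.01% on log2(FPKM + 0.1). These 4 were Hspa1a with -2.50 ± 0.723 (edgeR adjusted p = 0.111), Hspa1b with -2.36 ± 0.697 (edgeR adjusted p = 0.116), Dnajb1 with -1.69 ± 0.476 (edgeR adjusted p = 0.104) and Hspb1 with -0.98 ± 0.298 (edgeR adjusted p = 0.122). The values of 0 of 10 chaperones were free of overlap, against 11.6% of all genes. Without CT-WD 2 the unadjusted count was 7, against 2.5% of all genes as lower.

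Without CT-WD 3, edgeR called 0 of 10 at the adjusted level, against 0.0441% of all genes, and 0 of 10 as lower at the unadjusted level, against 1.56%, and DESeq2 and limma called 0 at both levels. Hspb7 and Bag3 were then the 2 of 10 whose values did not overlap, higher in OE-WD, against 17.5% of all genes. Hspb7, the filamin-binding chaperone, had a log2 fold change of 0.46 ± 0.192 (edgeR adjusted p = 0.437). Bag3 had 0.24 ± 0.110 (edgeR adjusted p = 0.486).

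On control diet the genotypes were compared as OE-CTD against CT-CTD, which holds no CT-WD library, although CT-WD 3 enters the shared estimate of the spread. The fitted mean was higher in OE-CTD for 9 of 10 chaperones, with a median log2 fold change of 0.15 beside -0.000702 for all genes, and Hsph1 was lower at -0.18. Bag3 was 207 ± 16.0 CPM (SD, n = 3) in CT-CTD and 283 ± 18.8 CPM (n = 4) in OE-CTD, a fold of 1.37, and higher in 4 of 4 OE-CTD libraries than in any CT-CTD library. Hspa1a was 2.46 ± 0.290 CPM (n = 3) and 3.89 ± 0.573 CPM (n = 4), a fold of 1.58, and also without overlap. These were the 2 of 10 whose values did not overlap, against 15.5% of all genes. The endothelial markers also lay apart, with sums of 327.6 to 334 CPM in CT-CTD and 343.7 to 423 CPM in OE-CTD. Their median log2 fold change was 0.299, with 0 of 8 called at the unadjusted level, and 0.255 in OE-WD against CT-WD. Their part in the chaperone levels was not tested.

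With all libraries, edgeR called 0 of 10 at the adjusted level, against 1.91% of all genes, and 0 of 10 at the unadjusted level, against 7.12%. DESeq2 and limma also called 0 at both levels, where DESeq2 gave no p for Hspa1a, Hspa1b and Dnajb1. Bag3 had a log2 fold change of 0.45 ± 0.145 (edgeR adjusted p = 0.121), and 0 of 10 had an adjusted p under 0.05 at any fold, against 2.67% of all genes. Without CT-WD 3 the estimate for Bag3 was 0.45 ± 0.0972 (edgeR adjusted p = 0.0230), which made it 1 of 10 with an adjusted p under 0.05 at any fold, against 3.14% of all genes, and still below a fold of 1.5. Over the alternatives the adjusted p of Bag3 was between 0.000686, by DESeq2 without CT-WD 3, and 0.377, without CT-CTD 2. Hspa1a had 0.66 ± 0.203 (edgeR adjusted p = 0.0954) and Hspa1b 0.61 ± 0.211 (edgeR adjusted p = 0.141) without CT-WD 3. They were the 2 of 10 called at the unadjusted level in that fit, against 7.45% of all genes, while 0 of 10 passed at the adjusted level, against 2.17%, and the values of 2 of 10 did not overlap, against 15.3%. Without CT-WD 3, DESeq2 and limma on log2(FPKM + 0.1) also called 2 as higher at the unadjusted level, against 5.32% and 4.5% of all genes, limma on log2(FPKM + 1) called 0, and each called 0 at the adjusted level.

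The interaction of diet and genotype tests whether the diet response differed between OE and CT. With all libraries 10 of 10 chaperones had a negative interaction, from -3.16 for Hspa1a to -0.18 for Hsph1, and a median of -0.68 beside -0.01 for all genes. By edgeR 0 of 10 passed at the adjusted level, against 0% of all genes, and DESeq2 and limma called 0. At the unadjusted level edgeR called 4 of 10 as lower, against 1.66% of all genes, while DESeq2 called 2, against 1.73%, limma on log2(FPKM + 1) called 0 and limma on log2(FPKM + 0.1) called 1, against 1.5%. The 4 were Dnajb1 with -2.15 ± 0.690 (edgeR adjusted p = 0.825), Hspa1b with -2.97 ± 1.02, Hspa1a with -3.16 ± 1.09 and Hspb1 with -1.13 ± 0.426. With a block for the replicate number Hspa1b was no longer called. Leaving out CT-WD 2 gave 7, against 2.44% of all genes as lower, and omitting the filter on low counts gave 3 at the adjusted level, against 0.0753%. Without CT-WD 3, edgeR called 0 of 10 at the adjusted level, against 0%, and 1 of 10 as lower at the unadjusted level, against 1.44%, where DESeq2 and limma on log2(FPKM + 0.1) called 1, against 1.47% and 1.38%, and limma on log2(FPKM + 1) called 0. That chaperone was Dnajb1, with -0.67 ± 0.265 (edgeR adjusted p = 0.999), and the median of the 10 was -0.25.

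**Figure D2:**
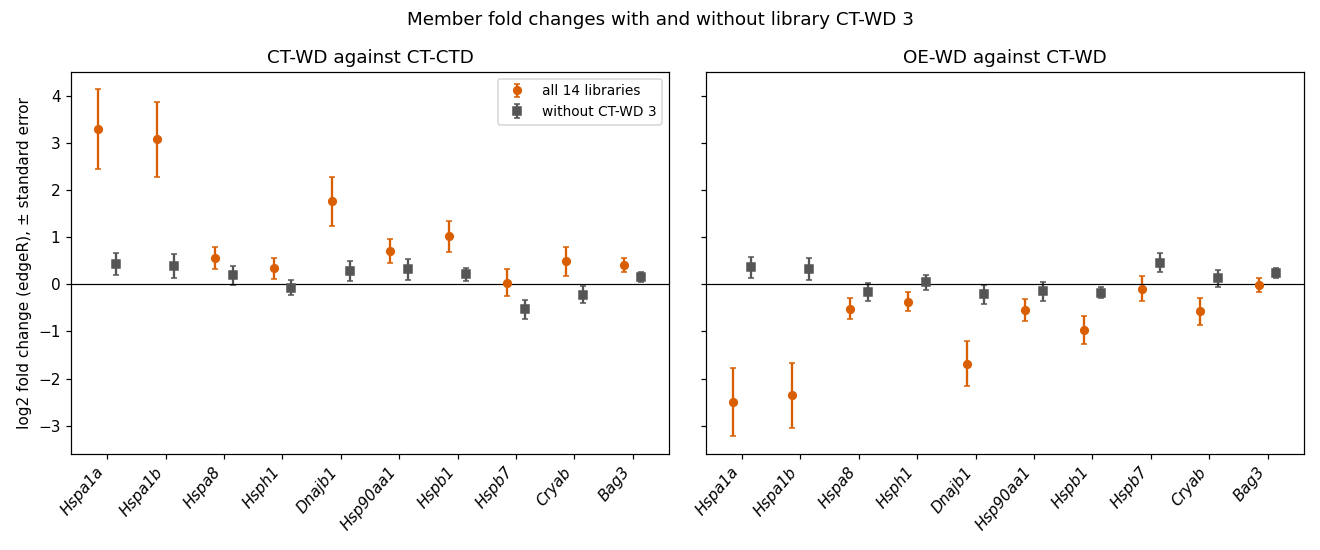
Fitted log2 fold changes of the 10 chaperones with their SE in CT-WD against CT-CTD and OE-WD against CT-WD. Values are shown with all 14 libraries and without CT-WD 3. In both comparisons the values of Hspa1a, Hspa1b and Dnajb1 move most when CT-WD 3 is left out.

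Other chaperones were examined as lists of known families, described by how many had their highest CPM in CT-WD 3. Of the other genes that Hsf1 is known to activate, 16 of 17 were highest in that library, with a median fold of 1.49 over the mean of the other 13, beside 13.5% and 0.979 for all genes. Ier5, an immediate-early regulator of Hsf1, was 2.18-fold and the HSP40 gene Dnajb4 1.92-fold above that mean. The exception was Serpinh1, the collagen chaperone of the endoplasmic reticulum, at 1.03-fold. Of the HSP90 proteins and co-chaperones 13 of 17 were highest in CT-WD 3, with a median fold of 1.25, among them Ahsa2, an activator of the HSP90 ATPase, at 1.81-fold and Stip1, which links HSP70 to HSP90, at 1.55-fold. The HSP40 family had 5 of 10 highest there, with Dnaja4 at 2.20-fold and a median of 1.34. Of the TRiC subunits, the ring that folds actin and tubulin, 7 of 8 were highest there, with a median of 1.29. Some genes are in more than a single list, such as Hsp90ab1, Stip1 and Dnajb4.

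The small heat shock proteins had 3 of 4 tested genes highest in CT-WD 3 with a median fold of 1.41, Hspb6 at 1.36 and Hspb8 and Hspb2 at 1.45 each. Of the partners of Bag3 in chaperone-assisted autophagy 5 of 7 were highest there, with a median fold of 1.25, and Flnc, the filamin that Bag3 helps to turn over at the Z-disc, stood at 3518 CPM against 1388 ± 399.7 CPM (SD, n = 13), a fold of 2.53. The mitochondrial chaperones had 5 of 8 highest in that library and a median fold of 1.18. The other HSP70 and HSP110 genes and exchange factors had 5 of 14 and a median of 1. The list of heat shock factors, which also holds Hsbp1, itself not such a factor, had 1 of 4 and 1.07, with Hsf1 at 1.15-fold. The endoplasmic reticulum chaperones, which answer to a separate stress response, had 1 of 13 highest in CT-WD 3 and a median of 1.11, and CT-WD 3 was sixth of the 14 libraries by their score.

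**Figure D3:**
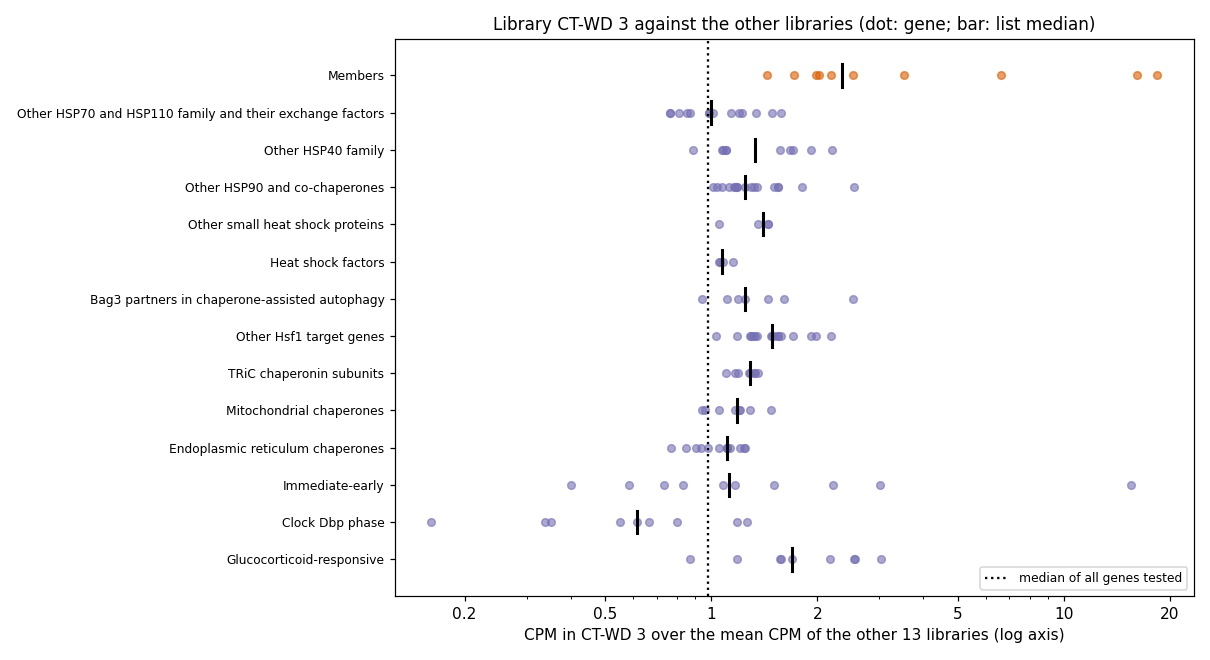
Fold of CT-WD 3 over the mean of the other 13 libraries on a log axis, by gene, with the median of each list. Besides the chaperone lists, the immediate-early, clock and glucocorticoid-responsive lists are shown. The 10 heat shock chaperones have a median of 2.35, the other Hsf1 targets 1.49 and all genes tested 0.979.

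Lists of other cell types and states were compared with CT-WD 3 in the same way, and their part in the chaperone levels was not tested. Of the immediate-early genes 4 of 10 were highest in CT-WD 3, and their summed level was 760 CPM there and between 216 and 438 CPM in the other 13 libraries. Most of this sum came from Atf3, a stress-induced transcription factor, at 307 CPM, and from Jun at 203 CPM. Atf3 had 19.8 ± 6.43 CPM (SD, n = 13) in the other libraries, so that its fold was 15.5. The median fold of the list was 1.12. Egr3, Egr2, Ier2 and Fosb were lower in CT-WD 3, at 0.4-fold, 0.583-fold, 0.735-fold and 0.834-fold. The clock genes of the Dbp phase, which cycle with the time of day, had their lowest score in CT-WD 3, where Dbp stood at 0.352-fold and Nr1d1 at 0.337-fold of the mean of the others, and summed to 642 CPM against 703 to 1066 CPM. Of the same list, Per1 and Per2 went the other way, at 1.18-fold and 1.26-fold. Glucocorticoid-responsive genes summed to 1870 CPM in CT-WD 3, 1760 CPM in CT-WD 2 and 874 to 1430 CPM in the other 12, and 5 of 9 were highest in CT-WD 3.

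Slow-fibre markers had 5 of 9 genes highest in CT-WD 3 and summed to 6313 CPM there, within the 4733 to 7492 CPM of the other libraries. Of the fast-fibre markers 1 of 11 and of the skeletal muscle markers 0 of 7 were highest in CT-WD 3. Adipocyte markers had 0 of 6 genes highest there and their lowest sum of the 14 libraries, 23.2 CPM against 41.2 to 183 CPM, led by Cfd. Tendon markers, led by Fmod, summed to 107 CPM in CT-WD 3, with 83.9 CPM in CT-WD 2 and 842 CPM in OE-WD 2. Macrophage markers had 0 of 6 highest there, endothelial markers 1 of 8, and the Schwann cell, blood and epidermal markers 0 of 4, 0 of 4 and 0 of 6. In each of these lists of cell types no gene was at 0 in all 14 libraries.

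Tested across the groups, 3 of 88 genes of the chaperone lists other than the 10 passed at the adjusted level in any of the 5 comparisons. Fkbp5, an immunophilin co-chaperone of HSP90 and of steroid receptors, fell in both comparisons of OE with CT. Serpinh1 and Pdia4, a disulfide isomerase of the endoplasmic reticulum, rose in OE-CTD against CT-CTD, where these were 3 of 88, against 1.91% of all genes, while in OE-WD against CT-WD Fkbp5 was 1 of 88, against 0.563%. Fkbp5 had 83.8, 39.9 and 165 CPM in CT-CTD, 44.9, 141 and 130 CPM in CT-WD, 16.5 to 24.2 CPM in OE-CTD and 22.3 to 38.5 CPM in OE-WD, so that every OE library was below every CT library. Its log2 fold change was -2.29 ± 0.403 for OE-CTD against CT-CTD (edgeR adjusted p = 0.00976). For OE-WD against CT-WD it was -1.91 ± 0.397 (edgeR adjusted p = 0.0399), and -1.72 without CT-WD 3 (edgeR adjusted p = 0.173). Serpinh1 had 35.3, 38.7 and 38.2 CPM in CT-CTD and 62.3, 83.3, 72.2 and 55.3 CPM in OE-CTD, without overlap, with a log2 fold change of 0.87 ± 0.194 (edgeR adjusted p = 0.0299). Pdia4 had 9.75 to 11.2 CPM in CT-CTD and 15.3 to 18.0 CPM in OE-CTD, with 0.63 ± 0.148 (edgeR adjusted p = 0.0358), and Pdia3, another such isomerase, had 0.58 ± 0.109 (edgeR adjusted p = 0.0127), just below a fold of 1.5. In both diet comparisons and the interaction edgeR called 0 genes of the chaperone lists at the adjusted level. Without adjustment 2 of 88 were called in CT, Dnajb4 among them, where 2.17% of all genes were called as higher. In the interaction Dnajb4 was 1 of 88, where 1.66% of all genes were called as lower. The diet comparison in OE had 0 of 88, against 1.37% of all genes.

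On control diet the HSP40 genes Dnaja4 and Dnajb4 had log2 fold changes of 0.41 and 0.37 in OE-CTD against CT-CTD, both below a fold of 1.5, with all libraries and without CT-WD 3 alike. The median of the HSP40 list was -0.0483 with all libraries and -0.0475 without CT-WD 3. The edgeR adjusted p was 0.481 for Dnaja4 and 0.363 for Dnajb4 with all libraries, and 0.0164 and 0.0441 without CT-WD 3, which is in neither group but enters the shared estimate of the spread. Without CT-WD 3, 3.14% of all genes had an adjusted p under 0.05 at any fold. Dnajb4 had 74.7, 64.9 and 65.6 CPM in CT-CTD and 92.4, 86.1, 93.3 and 82.1 CPM in OE-CTD, without overlap. In the diet comparison in CT Dnajb4 had 0.60 ± 0.201 (edgeR adjusted p = 0.555), and 0.19 without CT-WD 3.

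Lists that are not chaperones were counted in the same comparisons. In OE-CTD against CT-CTD, edgeR called 3 of 10 immediate-early genes as higher at the adjusted level, against 1.18% of all genes, Junb with a log2 fold change of 1.56, Egr3 with 3.11 and Ier2 with 1.22. At the unadjusted level it called 7 of 10 immediate-early genes, 6 of 6 macrophage markers and 4 of 5 tendon markers as higher there, against 4.94% of all genes. The median log2 fold change of these lists was 1.12, 0.878 and 1.67, beside -0.000702 for all genes, and 0 of the macrophage and tendon markers passed at the adjusted level. Without CT-WD 3, 4 immediate-early genes, 1 macrophage marker and 0 tendon markers passed as higher at the adjusted level, against 1.39%, and 7, 6 and 4 at the unadjusted level, against 5.21%. In CT-WD against CT-CTD edgeR called 8 of 10 immediate-early genes as higher at the unadjusted level, against 2.17% of all genes, and 0 at the adjusted level. Without CT-WD 3 it called 7 of 10, against 1.78%, and 0. In the interaction it called 7 of 10 immediate-early genes as lower at the unadjusted level, against 1.66% of all genes, with a median of -1.39 and 0 at the adjusted level, and without CT-WD 3 6 of 10, against 1.44%, with a median of -1.21 and 0. Among the clock genes, Nr1d1 and Ciart were higher in OE-CTD against CT-CTD, and Dbp, Nr1d1, Ciart and Hlf in OE-WD against CT-WD, at the adjusted level, as 2 of 9 against 1.18% and 4 of 9 against 0.252% of all genes. The median log2 fold change of the 9 was 0.0661 and 0.443, and Per2 was lower in OE-CTD against CT-CTD, at -0.58 ± 0.132 (edgeR adjusted p = 0.0324), below a fold of 1.5. Without CT-WD 3 the counts were 3 of 9 against 1.39% and 1 of 9 against 0.0126%, and the medians 0.0669 and 0.274. In OE-WD against CT-WD Dbp then had a log2 fold change of 1.16 (edgeR adjusted p = 0.0189), beside 1.32 with all libraries. Nr1d1 had 1.14 (edgeR adjusted p = 0.0934), beside 1.32, and Ciart 1.54 (edgeR adjusted p = 0.112), beside 1.88. Hlf had 0.488 (edgeR adjusted p = 0.142), beside 0.615. Of the glucocorticoid-responsive genes, Zbtb16, a transcription factor, had -1.02 ± 0.154 in OE-CTD against CT-CTD (edgeR adjusted p = 0.00575) and 1.23 ± 0.146 in OE-WD against OE-CTD (edgeR adjusted p = 0.00559). In OE-WD against CT-WD it had -0.53 ± 0.153 (edgeR adjusted p = 0.111), and -0.34 without CT-WD 3 (edgeR adjusted p = 0.471). Both have the same sign as the difference of the genotypes on control diet. An exchange of the CT-WD and OE-CTD labels would make the value of 1.23 the difference of the genotypes on western diet and that of -0.53 the difference of the diets in OE. Mt1, a metallothionein, had -1.22 ± 0.238 in OE-WD against CT-WD (edgeR adjusted p = 0.0322), and -0.87 without CT-WD 3 (edgeR adjusted p = 0.173). The part of these lists in the chaperone levels was not tested.

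Covariation between the chaperones was examined over the 14 libraries after subtracting group means from log2 CPM. All 45 pairs had a positive Pearson r, with a median of 0.823 and a median Spearman rho of 0.653, and 13 pairs passed a Benjamini-Hochberg adjusted permutation p under 0.05 for r and 11 for rho. The strongest was Hspa1b with Dnajb1, with r = 0.976 (permutation p = 0.00247, adjusted p = 0.0255) and rho = 0.842 (permutation p = 0.00536, adjusted p = 0.0301), and r = 0.789 without the 2 libraries farthest from the median. Hspa8 with Cryab had r = 0.905 (permutation p = 0.00099, adjusted p = 0.0255) and rho = 0.855 (permutation p = 0.00177, adjusted p = 0.0224), and r = 0.863 without the 2 farthest libraries. Over the 45 pairs the median r without the 2 farthest libraries was 0.442, and CT-WD 3 was among those left out in each pair. Without CT-WD 3, a setting chosen after seeing the data, 39 of 45 pairs were positive, the median r was 0.427 and 0 pairs passed, with 10 at an unadjusted permutation p under 0.05. Hspa8 with Cryab was then the highest at r = 0.871 (permutation p = 0.00989, adjusted p = 0.159).

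The chaperones were also related to the library scores of the slow-fibre, immediate-early and clock lists, in 30 relations. Of these, 0 passed for Pearson's r after adjustment and 1 for Spearman's rho, and 3 had an unadjusted permutation p under 0.05 for r. Cryab with the slow-fibre score had r = 0.773 (permutation p = 0.00423, adjusted p = 0.0762) and rho = 0.767 (permutation p = 0.00581, adjusted p = 0.0621), and r = 0.718 without the 2 farthest libraries. Bag3 with the slow-fibre score had r = 0.762 (permutation p = 0.00762, adjusted p = 0.0762) and rho = 0.811 (permutation p = 0.00143, adjusted p = 0.0429), and r = 0.747 without the 2 farthest libraries. Hsp90aa1 with the immediate-early score had r = 0.794 (permutation p = 0.0072, adjusted p = 0.0762) and rho = 0.776 (permutation p = 0.00621, adjusted p = 0.0621), and r = 0.712 without the 2 farthest libraries. Without CT-WD 3 these r were 0.733, 0.663 and 0.824, with adjusted permutation p of 0.426, 0.426 and 0.353. The clock score had negative r with 10 of 10 chaperones, with a median of -0.487, and without CT-WD 3 the median was 0.22 and 8 of 10 were positive.

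Across all 14 libraries, the genes whose log2 CPM was most like the mean pattern of the chaperones were Nfat5, the transcription factor of osmotic stress, with r = 0.951, Abra with 0.935, Atf3 with 0.932 and Srxn1 with 0.928. They were followed by Klhl40, Hhatl, Tnfrsf12a, Enah, Arid5b and Dnaja4, with r between 0.905 and 0.919. In CT-WD 3 these 10 genes were 2.20-fold to 15.5-fold above the mean of the other libraries. Without CT-WD 3 the list was led by Arl8b with r = 0.914, Tal1 with 0.849 and Natd1 with 0.834. These values describe likeness over 14 or 13 libraries only, and genes are not independent replicates.

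Because the chaperones were high together in CT-WD 3, their promoters were searched for the inverted words to which heat shock factors bind. The words searched were GAANNTTC and TTCNNGAA, each its own reverse complement, in windows from 250 bases before to 50 bases after the start of the gene, taken from RefSeq on build GRCm38.p6. Of all 27025 promoters 7.95% held GAANNTTC, 8.40% held TTCNNGAA and 15.1% held either. Of the 10 chaperones 7 had an entry and 5 of these held a word, Hspa1a, Hspa1b, Hspb1, Hsph1 and Bag3, while Dnajb1 and Hspb7 held none in the window. Hspa8, Hsp90aa1 and Cryab had no entry. An array of 3 alternating units, the form in which a trimer of the factor contacts DNA, was in 0.529% of all promoters and in 1 of the 7, Hsph1. Of the other Hsf1 targets 5 of 15 with an entry held a word and 2 an array. A match is a description of the sequence and not a binding site.

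For the 5 genes with a word, 1 window each is shown with the words in capitals, since they belong to the chaperones with both small and large excess in CT-WD 3. They lie at chr17:34972107-34972406 on the minus strand for Hspa1a, chr17:34959189-34959488 on the minus strand for Hspa1b, chr5:135887669-135887968 on the plus strand for Hspb1, chr5:149636287-149636586 on the minus strand for Hsph1 and chr7:128523333-128523632 on the plus strand for Bag3. The other window of Hsph1, at chr5:149636266-149636565, overlaps the one shown and holds the same 3 words.
Hspa1a: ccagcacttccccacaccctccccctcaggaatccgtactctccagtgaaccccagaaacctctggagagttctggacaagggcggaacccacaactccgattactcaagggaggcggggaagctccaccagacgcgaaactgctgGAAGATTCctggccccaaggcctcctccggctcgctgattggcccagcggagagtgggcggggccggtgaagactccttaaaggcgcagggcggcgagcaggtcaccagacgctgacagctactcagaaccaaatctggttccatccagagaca
Hspa1b: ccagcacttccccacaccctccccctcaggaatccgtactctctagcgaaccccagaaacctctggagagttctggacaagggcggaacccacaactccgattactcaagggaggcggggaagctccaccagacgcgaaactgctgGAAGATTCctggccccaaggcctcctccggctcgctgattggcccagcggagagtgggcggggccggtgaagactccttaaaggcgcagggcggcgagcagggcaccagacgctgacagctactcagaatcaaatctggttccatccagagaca
Hspb1: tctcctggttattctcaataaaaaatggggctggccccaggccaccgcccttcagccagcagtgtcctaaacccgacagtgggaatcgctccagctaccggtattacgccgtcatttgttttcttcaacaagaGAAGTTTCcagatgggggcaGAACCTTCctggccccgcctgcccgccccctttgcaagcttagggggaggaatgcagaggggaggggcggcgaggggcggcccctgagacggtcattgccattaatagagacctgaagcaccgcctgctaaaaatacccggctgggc
Hsph1: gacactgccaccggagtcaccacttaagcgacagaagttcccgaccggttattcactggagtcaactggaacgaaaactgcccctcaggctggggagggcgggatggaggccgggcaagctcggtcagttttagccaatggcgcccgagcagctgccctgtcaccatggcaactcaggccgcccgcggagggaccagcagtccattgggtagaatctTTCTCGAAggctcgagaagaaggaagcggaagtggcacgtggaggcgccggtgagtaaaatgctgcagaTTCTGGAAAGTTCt
Bag3: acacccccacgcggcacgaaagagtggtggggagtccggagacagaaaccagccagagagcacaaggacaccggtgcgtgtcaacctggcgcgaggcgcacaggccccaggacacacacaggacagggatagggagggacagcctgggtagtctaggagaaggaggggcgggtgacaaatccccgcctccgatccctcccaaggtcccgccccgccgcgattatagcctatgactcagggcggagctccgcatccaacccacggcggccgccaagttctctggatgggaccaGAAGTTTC

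Hspa1a and Hspa1b each held GAAGATTC at 104 bases before the start, and their windows were the same at 296 of 300 positions. In Hspb1 the words were GAAGTTTC and GAACCTTC, and in Bag3 GAAGTTTC at the end of the window. In Hsph1 the words were TTCTCGAA, TTCTGGAA and GAAAGTTC, the last 2 of which overlap. The transcripts of Hspa1a and Hspa1b shared 47.1% and 49.9% of their stretches of 100 bases, so that reads from these stretches cannot be told apart by sequence. Other genes overlap the chaperones, and the strand setting of the counting was not stated: Cryab overlaps the antisense Hspb2, which had a mean of 38.6 CPM, and Hspa1a the antisense Gm20481, with a mean of 0 CPM. Bag3 overlaps 2610306O10Rik on the same strand, at 0.448 CPM, and Hspa8 holds Snord14c, Snord14d and Snord14e, at 0 CPM each.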

How the data were processed

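RNA-seq of 14 mouse skeletal muscle libraries in 4 groups was used. The authors deposited counts, the reads assigned to each of 54532 genes, without normalization. The authors also deposited FPKM, in which counts are divided by gene length and a library total of 79.93% to 97.97% of the summed counts. Per the labels the authors used HISAT2 2.0.5, featureCounts 1.5.0-p3 and build mm10 after selection with poly-T beads, and strand and multimapping settings were not stated. Of 54409 identifiers shared with the reference annotation on GRCm38, 98.3% had the same position, among them all 10 chaperones.

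The tests used the quasi-likelihood method of edgeR 4.0.16 (R 4.3.3) on counts after TMM scaling, filterByExpr (15458 genes left, 0.0467% to 0.0694% of a library's counts removed) and a model with a mean per group over all libraries. P-values were two-sided and Benjamini-Hochberg adjusted over all genes tested. The adjusted level was a fold over 1.5 with an adjusted p under 0.05, and the unadjusted level the same fold with p under 0.05. The SE is the log2 fold change over the square root of F. Log2 CPM used a prior count of 2. Depth was 21833839 to 28519159 counted reads, and the biological coefficient of variation was 17%. Correlations used 100000 two-sided permutations within groups. The test was tested on simulated data.

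Genes were named by rule: the 10 chaperones, genes of the chaperone lists called at the adjusted level in any comparison or among the 3 smallest p of a list and comparison, and the 10 genes most like the chaperones' mean pattern among those with a mean of at least 1 CPM. From the other lists, the genes named were chosen after their values were seen, as were the extremes named in CT-WD 3. The members and lists were chosen with earlier results of these data known. Hspb9, Cryaa, Hsf5, Mt2, Pmp2 and Hba-a2 did not pass the filter. A gene of the lists that the rule names is not reported. Replicate numbers were checked as pairs by correlating deviations from group means across genes: for CT-WD and CT-CTD these were 0.385, 0.123 and 0.203, all over 0.1, and the numbers were taken to pair the CT libraries. For OE-WD and OE-CTD they were 0.0711, 0.138, 0.142 and 0.338. Between replicates the chi-square per degree of freedom was 7.502 to 48.13.

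Alternatives were DESeq2 1.42.0, upper-quartile scaling, no filter, a mean CPM of at least 1, limma 3.58.1 on log2 FPKM with 1 or 0.1 added, only the groups compared, a block for the replicate number, Hspa1a and Hspa1b summed, each library left out, and for correlations group means kept and another prior count. The block was set within genotype for the diet comparisons and the interaction, and within diet for the comparisons of genotypes. The correlations, likeness, DESeq2, limma and block without CT-WD 3 were added after seeing the data. Reads and the muscle of origin were not used here.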

Additional observations from a re-analysis of the deposited data

How the results depend on the processing

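Of the 1300 log2 fold changes of single chaperones under the alternatives, 1131 kept their direction and side of the unadjusted level, 32 came to pass it, 65 no longer did and 72 changed sign. Of these 72, 8 were called with all libraries, Hspa1a and Hspa1b in OE-WD against CT-WD, and 64 were not, and 49 came without CT-WD 3. The other 23 were at most 0.17 in size. Of the counts of chaperones called and of Pearson correlations that passed, 232 stayed within 1.5 times and 37 did not. Without a filter, edgeR called 4 at the adjusted level in CT-WD against CT-CTD, 4 in OE-WD against CT-WD and 3 in the interaction, where it called 0 with the filter. At the unadjusted level DESeq2 called 2 of 10 in CT-WD against CT-CTD (5 by edgeR), 1 in OE-WD against CT-WD (4 by edgeR) and 2 in the interaction (4 by edgeR). It gave no p for Hspa1a, Hspa1b and Dnajb1, by its rule on counts far from the fit. Limma on log2(FPKM + 1) called 3, 2 and 0 in these comparisons, and on log2(FPKM + 0.1) 2 in OE-WD against CT-WD and 1 in the interaction. A block for the replicate number gave 2 in OE-WD against CT-WD (1.81% of all genes), where equal numbers did not deviate together, and 3 in the interaction (1.89%), without Hspa1b, and changed no other call of a chaperone. Without CT-WD 3, DESeq2, limma and the block gave 0 to 2 at the unadjusted level in the comparisons run and 0 at the adjusted level. Only the groups compared in the fit gave 2 in OE-CTD against CT-CTD (5.58% of all genes), against 0.

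With each library left out in turn, the log2 fold changes that changed sign by edgeR ran as follows. In CT-WD against CT-CTD they were Hsph1 -0.070 to 0.53, Hspb7 -0.53 to 0.31 and Cryab -0.22 to 0.77. In OE-WD against OE-CTD they were Hspa1a -0.025 to 0.25, Hspa1b -0.029 to 0.23, Hspa8 -0.098 to 0.063 and Hsp90aa1 -0.13 to 0.11. In OE-WD against CT-WD they were Hspa1a -3.02 to 0.36, Hspa1b -2.88 to 0.33, Hsph1 -0.56 to 0.039, Hspb7 -0.37 to 0.46, Cryab -0.86 to 0.13 and Bag3 -0.15 to 0.24. In OE-CTD against CT-CTD they were Hspa8 -0.13 to 0.25, Hspb7 -0.045 to 0.31 and Cryab -0.036 to 0.35. In the interaction they were Hsph1 -0.38 to 0.22, Hspb7 -0.53 to 0.31 and Cryab -0.96 to 0.027. Without CT-WD 3, DESeq2 gave -0.068 for Hsph1, -0.53 for Hspb7 and -0.22 for Cryab in CT-WD against CT-CTD; 0.36 for Hspa1a, 0.33 for Hspa1b, 0.038 for Hsph1, 0.46 for Hspb7, 0.12 for Cryab and 0.24 for Bag3 in OE-WD against CT-WD; 0.22 for Hsph1, 0.31 for Hspb7 and 0.027 for Cryab in the interaction. Without CT-WD 3, limma on log2(FPKM + 1) gave -0.057 for Hsph1, -0.51 for Hspb7 and -0.19 for Cryab in CT-WD against CT-CTD; 0.20 for Hspa1a, 0.31 for Hspa1b, 0.037 for Hsph1, 0.48 for Hspb7, 0.13 for Cryab and 0.24 for Bag3 in OE-WD against CT-WD; 0.20 for Hsph1 and 0.30 for Hspb7 in the interaction. Without CT-WD 3, limma on log2(FPKM + 0.1) gave -0.059 for Hsph1, -0.51 for Hspb7 and -0.19 for Cryab in CT-WD against CT-CTD; 0.32 for Hspa1a, 0.35 for Hspa1b, 0.039 for Hsph1, 0.48 for Hspb7, 0.13 for Cryab and 0.25 for Bag3 in OE-WD against CT-WD; 0.21 for Hsph1 and 0.30 for Hspb7 in the interaction. Without CT-WD 3, the block gave -0.35 for Hspb7 in CT-WD against CT-CTD; 0.091 for Hsph1 and 0.14 for Hspb7 in the interaction. With all libraries, limma on log2(FPKM + 1) and on log2(FPKM + 0.1) gave the other sign than edgeR for Hspb7 in CT-WD against CT-CTD, at -0.075 by both, and for Hspb7 and Bag3 in OE-WD against CT-WD, at 0.048 and 0.018 by both, and the block for Hspb7 at -0.078 in CT-WD against CT-CTD and 0.095 in OE-WD against CT-WD.

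With each library left out in turn, the adjusted count was 0 to 1 in CT-WD against CT-CTD and 0 to 5 in OE-WD against CT-WD, the highest without CT-WD 1. The unadjusted count was 0 to 7 in CT-WD against CT-CTD, the highest without CT-WD 1 and without CT-WD 2 (2.43% and 3.1% of all genes), 0 to 7 in OE-WD against CT-WD, the highest without CT-WD 2, 0 to 2 in OE-CTD against CT-CTD and 1 to 7 in the interaction, with the lowest of the first, the second and the last, and the highest of OE-CTD against CT-CTD, without CT-WD 3. Where a group was left with 2 libraries, the pooled spread was used. Correlations between chaperones passed by Pearson's r for 13 pairs, for 33 with group means kept and for 0 without CT-WD 3, and by Spearman's rho for 11, 6 and 0. Correlations with list scores passed by r for 0, 1 and 0 and by rho for 1, 5 and 0. Apart from fewer libraries or genes in a setting, the cause was not tested. No scaling moved the median of all genes by over 0.1 on the log2 scale. With 3 or 4 libraries a group, 1 library can set a group's mean and the shared spread.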
